A study of Mus musculus with 10 samples.

Results

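Interferon-stimulated genes and the sensors of foreign or displaced nucleic acid were followed in tracheal epithelial organoids of the mouse. The set was chosen by name: 40 symbols of interferon-induced genes, RNA and DNA sensors and their adaptors, of which Rigi and Ddx58 are the same gene, so that 39 genes were looked up. All 39 had a row among the 22457 genes of the deposited count table (Rigi as Ddx58), and all 39 passed the filter on low counts that 13528 genes passed. The study compared M3-CKO organoids (3 RNA-seq libraries), grown from tracheal basal cells of mice with a knockout of Mettl3, as named in the title of the series, with Ctrl organoids (3 libraries), grown from basal cells of control mice, both harvested on day 14. Mettl3 is the catalytic subunit of the enzyme that writes N6-methyladenosine on messenger RNA. The 4 further libraries of the series, from immunoprecipitation of methylated RNA and its input, were not analysed here. The sources used here do not give the Cre driver, the deleted part of Mettl3, or the age and strain of the mice. Nor do they say which animals or cultures the replicates came from, so p-values cover no more than the spread among 6 libraries, and that spread may be technical. Organoids of both groups grew in Matrigel in a medium with insulin, transferrin, cholera toxin, epidermal growth factor, pituitary extract and retinoic acid. The culture protocol also lists the inhibitors A83-01 and DMH-1, serum, Y-27632 for the first days and a change to differentiation medium with albumin, and it names no interferon.

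Cells detect viral or misplaced nucleic acid with dedicated sensors. RIG-I-like receptors and Toll-like receptor 3 bind double-stranded RNA, and cGAS binds DNA. Signals through the adaptors MAVS, TRIF and STING lead to type I and type III interferon, to which airway epithelium responds. Interferon receptors then activate a transcription factor complex that contains STAT2 and IRF9 and binds the interferon-stimulated response element (ISRE) in promoters, raising a large set of antiviral genes. Interferon gamma acts through a further element, the gamma-activated sequence (GAS). Many sensors and transcription factors of this pathway are themselves interferon-induced.

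The total was 8977765 to 10485922 counts in M3-CKO libraries and 8906375 to 9592840 counts in Ctrl libraries, and levels are given as CPM, the count of a gene over the TMM-scaled size of its library, where 1 CPM stands for about 9 to 10 counts. M3-CKO replicate 3 stood apart: across tested genes its Pearson r of log2(CPM + 1) was 0.930 and 0.920 with M3-CKO replicates 1 and 2, which reached 0.990 with each other. The 3 Ctrl libraries reached 0.974 to 0.983 among themselves. With the Ctrl libraries, r was 0.934 to 0.938 for M3-CKO replicate 3 and 0.937 to 0.946 for M3-CKO replicates 1 and 2. M3-CKO replicate 3 was thus no closer to its own group than to Ctrl. The r values describe the libraries only, since genes are not independent of each other. Mettl3 itself had 11.1, 10.3 and 9.87 CPM in M3-CKO replicates 1 to 3, and 15.0, 17.0 and 18.9 CPM in Ctrl replicates 1 to 3. The groups did not overlap, but the difference of -0.70 on the log2 scale (SE 0.21) missed the threshold in edgeR (adjusted p = 0.12). Reads from any part of Mettl3 that was not deleted would still be counted. Epithelial identity was present in all libraries, with Epcam at 434 to 603 CPM in M3-CKO and 375 to 462 CPM in Ctrl libraries.

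Promoter sequences are shown first, because many of these genes have ISRE letters. The rule chose interferon-induced genes, so a high share of ISRE letters among them is tied to the rule. RefSeq promoter windows on GRCm38.p6 (250 bases before the annotated start and 50 from it on) were held for 29 of the 39 genes. Dhx58, Zbp1, Sting1, Oas2, Mx1, Mx2, Usp18, Ifi27, Rtp4 and Parp14 had no window. The core ISRE letters, GAAA, then 2 bases of any kind, then GAAA, searched on both strands, were present in the windows of 13 of the 29 genes (44.8%), against 1079 of 27025 genes with a window in all (3.99%). The longer form, the core followed directly by CT, was present in 7 of 29 (24.1%), against 82 of 27025 genes (0.303%). The GAS letters TTCNNNGAA, the same on both strands, were present in 8 of 29 (27.6%), against 2582 of 27025 genes (9.55%). A match describes letters, not a used site, and a window with no match says nothing of the factor. The stretches around the matches that lie before the start are printed 5′ to 3′ on the gene's strand with the matched letters in capitals. They cover 8 ISRE genes, among them those with several matches, and then Irf1 and Isg20 with their GAS letters. Where capitals exceed the length of the motif, matches overlap.
Ifit1: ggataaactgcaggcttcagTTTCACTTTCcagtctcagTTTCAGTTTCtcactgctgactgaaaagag
Ifit3: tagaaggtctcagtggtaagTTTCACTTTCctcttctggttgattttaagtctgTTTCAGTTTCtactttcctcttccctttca
Isg15: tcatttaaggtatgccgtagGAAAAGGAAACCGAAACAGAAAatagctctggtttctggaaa
Oas1a: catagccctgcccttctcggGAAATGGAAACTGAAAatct
Oas1g: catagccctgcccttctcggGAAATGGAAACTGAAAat
Oas3: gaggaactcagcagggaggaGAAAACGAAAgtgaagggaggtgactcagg
Rsad2: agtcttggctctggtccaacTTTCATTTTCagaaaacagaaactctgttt
Bst2: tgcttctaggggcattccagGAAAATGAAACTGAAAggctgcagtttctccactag
Irf1: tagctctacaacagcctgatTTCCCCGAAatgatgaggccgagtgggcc
Isg20: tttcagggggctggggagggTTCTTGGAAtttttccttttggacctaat

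These stretches lie, on GRCm38.p6, at chr19:34640765-34640833 (plus strand) for Ifit1, chr19:34583353-34583436 (plus) for Ifit3, chr4:156200855-156200916 (minus) for Isg15 and chr5:120907526-120907565 (minus) for Oas1a. Those of Oas1g, Oas3 and Rsad2 lie at chr5:120887614-120887651, chr5:120777705-120777754 and chr12:26456543-26456592 (all minus). Those of Bst2, Irf1 and Isg20 lie at chr8:71537567-71537622 (minus), chr11:53769904-53769952 (plus) and chr7:78913331-78913379 (plus). Isg15 had 3 overlapping ISRE matches between 78 and 57 bases before its start, the most of any of the 29 genes. Ifit1 and Ifit3 each had 2 separate matches, and Oas1a, Oas1g and Bst2 each had 2 overlapping ones. The Oas1a and Oas1g windows were identical at 85.3% of aligned positions, and these paralogs may share reads, so that their counts are uncertain. The GAS match of Bst2 overlaps its ISRE match. In the sensor genes Rigi, Ifih1 and Eif2ak2 the ISRE letters lay after the annotated start, at base 3, 33 and 19.

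**Figure D1:**
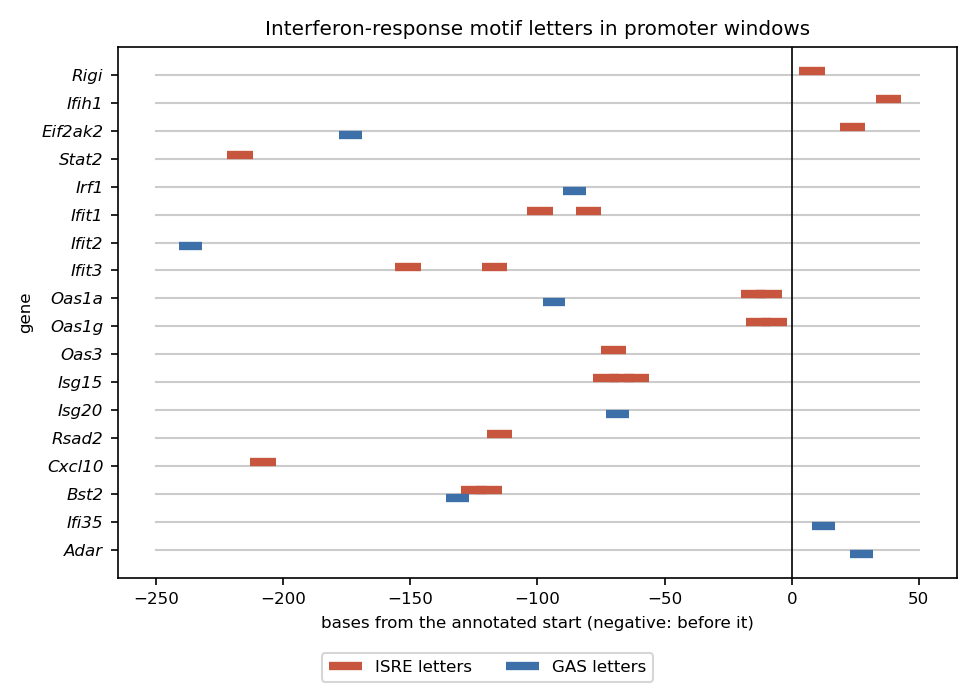
Positions of ISRE letters (red) and GAS letters (blue) in the promoter windows of the 18 genes with a match, in bases from the annotated start (vertical line), 1 row per gene. Most ISRE matches before the start lie within 160 bases of it, those of Stat2 and Cxcl10 lie farther out, and those of Rigi, Ifih1 and Eif2ak2 lie after it.

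Between M3-CKO and Ctrl organoids, 1 of the 39 genes was called, and it was lower in M3-CKO. Isg20, an exonuclease of single-stranded RNA that interferon induces, had 86.5, 82.6 and 108 CPM in M3-CKO replicates 1 to 3, against 190.4, 190.4 and 199 CPM in Ctrl replicates 1 to 3. The M3-CKO libraries all lay below the Ctrl libraries, by a gap several times the spread within either group. The log2 fold change was -1.06 (SE 0.16, adjusted p = 0.027 by edgeR's quasi-likelihood test with Benjamini-Hochberg adjustment over all 13528 genes). Over all tested genes 2.91% were called at an adjusted p under 0.05, 1.74% higher and 1.16% lower in M3-CKO, so 1 of 39 is near that share. None of the 39 was called higher by edgeR, DESeq2 or limma-voom. By edgeR 3 had an unadjusted p under 0.05 (Isg20, Ifih1 and Rtp4), where 20.5% of all tested genes did. DESeq2 called Isg20 and Ifih1, both lower, and over all tested genes it called 10.4%, of which 6.05% of the tested genes were higher and 4.31% lower. Limma-voom called Isg20, and 2.23% of all tested genes, 1.2% higher and 1.03% lower. With single libraries left out, edgeR kept the Isg20 call only without M3-CKO replicate 3, at an adjusted p of 0.00052. Without any other single library its adjusted p was between 0.095 and 0.14, with a log2 fold change of -1.08 to -0.98. Calls were lost over the whole table in those fits: edgeR called 0 to 18 genes in all without any other single library, against 3483 without M3-CKO replicate 3.

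Of the 39 log2 fold changes 24 were positive and 15 negative, with a median of 0.16, beside a median of 0.02 over all tested genes. That median turned negative without M3-CKO replicate 2 (-0.13) or without Ctrl replicate 3 (-0.15), and was 0.50 and 0.55 without M3-CKO replicate 3 and without Ctrl replicate 2. The standard errors were wide, at a median of 0.51 over the 39 genes, against 0.27 over all tested genes. The groups did not overlap for 2 of the 39 genes, Isg20 and Ifih1, both lower in M3-CKO. Such a separation was found for 27.1% of all tested genes, 13.7% higher and 13.5% lower. Without M3-CKO replicate 3, edgeR called 3 of the 39 (Rtp4 and Tlr3 higher, Isg20 lower), while over all genes it called 25%, 13.7% higher and 11.3% lower.

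**Figure D2:**
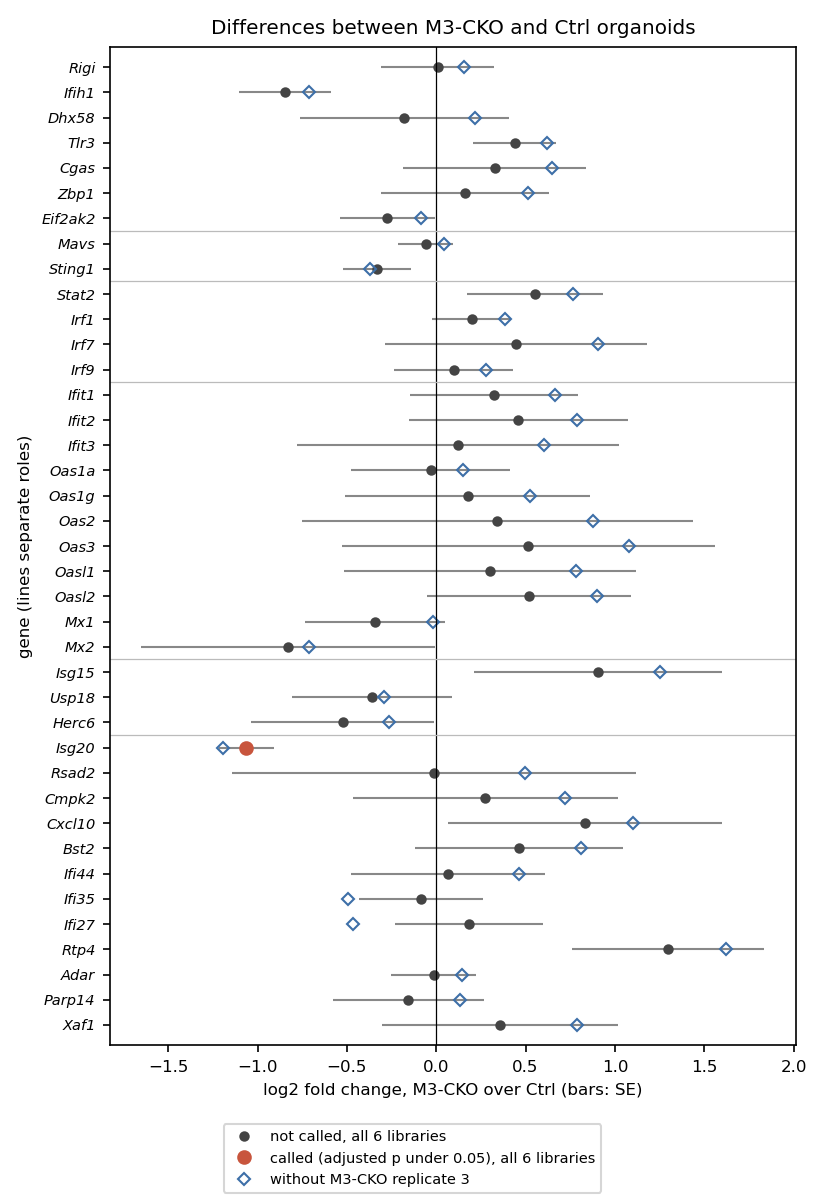
Log2 fold change of M3-CKO over Ctrl for each of the 39 genes, ordered by role from sensors at the top to other induced genes at the bottom. Filled points with bars give the value and its SE from all 6 libraries, and open diamonds the value without M3-CKO replicate 3. Isg20 (red) at -1.06 is the gene that was called, and Rtp4 at 1.30 and Ifih1 at -0.85 lie farthest from 0 in each direction among those not called.

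The values by library showed a pattern that the group comparison did not. In M3-CKO, replicate 3 was the lowest library for 35 of the 39 genes (89.7%), where it was the lowest for 44.0% of all tested genes. In Ctrl, replicate 3 was the lowest for 32 of the 39 genes (82.1%), against 29.1% of all tested genes, and replicate 2 was the highest for 33 (84.6%), against 30.6%. Altogether 30 of the 39 genes (76.9%) were at their lowest in replicate 3 of both groups, as were 10.2% of all tested genes. Genes induced by the same signal are not independent of each other. These counts of genes, and those by library given below, are therefore not separate observations of a library. The labels do not say whether a replicate number marks a shared animal, culture or batch. This was looked at by correlation and by a fit with a replicate block, and was not otherwise tested. Over all tested genes, deviations from the group means correlated at -0.11 between the libraries numbered 3. Between M3-CKO and Ctrl libraries with different numbers they correlated at -0.082 to 0.12. The median deviation of the 39 genes from the group mean of log2(CPM + 1) was -0.75 in replicate 3 of both groups. Taken out of the log2 scale, this is a ratio of 0.593 in each. Over all tested genes the same ratios were 1.01 in M3-CKO replicate 3 and 0.998 in Ctrl replicate 3. TMM scaling evens out such medians between libraries, so 0.593 is a level relative to the other genes of the library.

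The same could be read from sums. Together the 39 genes had 2983, 3596 and 1683 CPM in M3-CKO replicates 1 to 3, against 2444, 3379 and 1610 CPM in Ctrl replicates 1 to 3. In both groups replicate 2 was the highest and replicate 3 the lowest, and the ranges overlapped for most of their length. The group means of 2754 ± 977 CPM in M3-CKO and 2478 ± 885 CPM in Ctrl (SD, n = 3 each) differed by less than either SD. For 33 of the 39 genes (84.6%) the difference of the group means of log2(CPM + 1) was smaller than the SD within groups, against 51.0% of all tested genes. In bulk libraries, fewer cells that express a gene and less of its RNA per cell cannot be told apart.

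**Figure D3:**
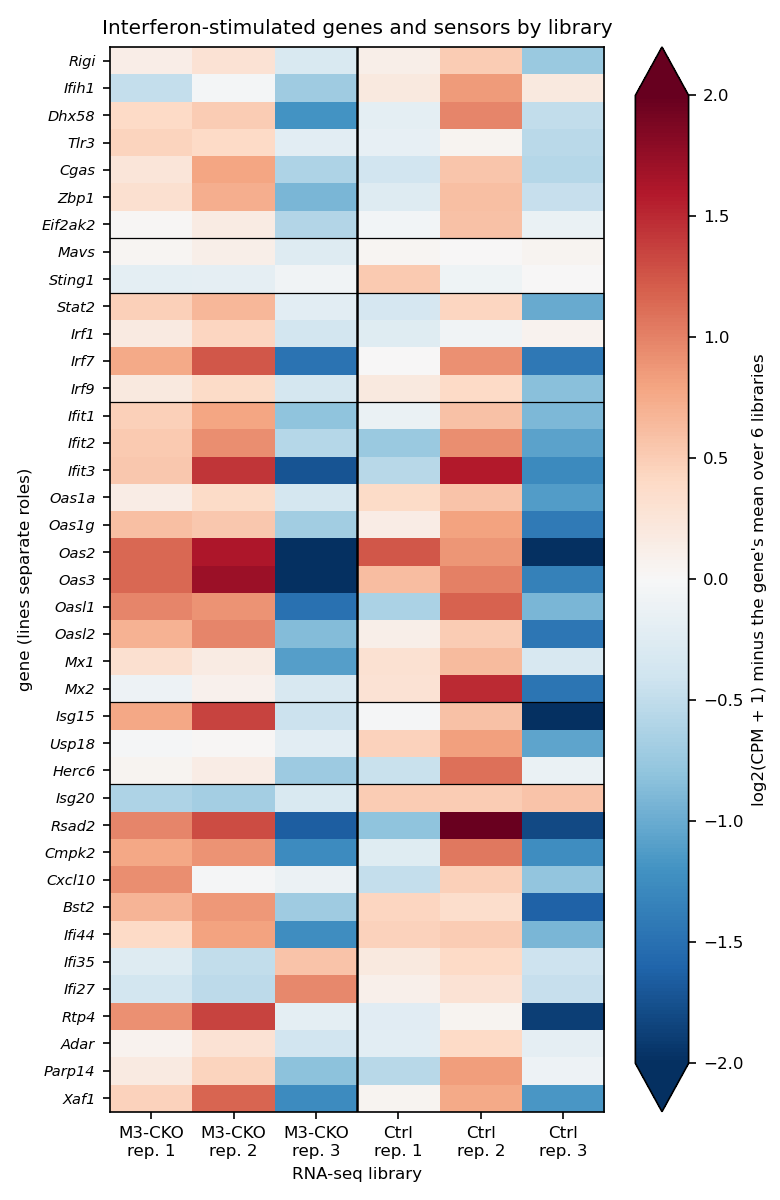
Level of each of the 39 genes (rows, grouped by role) in the 3 M3-CKO libraries (left) and the 3 Ctrl libraries (right). Colour gives log2(CPM + 1) minus the gene's mean over the 6 libraries, from blue (lower) to red (higher). Replicate 3 is blue in most rows of both groups, and Isg20 and Ifih1 are the rows in which M3-CKO lies below Ctrl throughout.

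Among the sensors, Ifih1, which encodes the receptor MDA5 for long double-stranded RNA, had 43.2, 58.9 and 36.8 CPM in M3-CKO, against 69.3, 111 and 69.3 CPM in Ctrl. The M3-CKO libraries all lay below the Ctrl libraries. The log2 fold change was -0.85 (SE 0.26, adjusted p = 0.12 by edgeR and 0.046 by DESeq2). Rigi, the receptor for short RNA with a 5′ triphosphate, showed no such order, at 106, 117 and 77.5 CPM in M3-CKO and 104, 138 and 57.1 CPM in Ctrl (log2 fold change 0.01, SE 0.32, adjusted p = 0.99). Dhx58, which encodes LGP2, a regulator of both receptors, had 12.6, 13.8 and 3.56 CPM in M3-CKO and 8.08, 19.5 and 6.40 CPM in Ctrl. The groups overlapped, and the difference was smaller than its error (-0.18 on the log2 scale, SE 0.59, adjusted p = 0.90).

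Tlr3, the endosomal receptor for double-stranded RNA, stood at 177, 171 and 112 CPM in M3-CKO and at 116, 135 and 89.1 CPM in Ctrl. M3-CKO replicate 3 lay among the Ctrl values. With all libraries the edgeR log2 fold change was 0.44 (SE 0.23) at an adjusted p of 0.34. Leaving that library out gave 0.62 (adjusted p = 0.030). The kinase PKR, encoded by Eif2ak2, halts translation when it binds double-stranded RNA, and its gene had 96.1, 106 and 63.0 CPM in M3-CKO and 91.5, 143 and 85.8 CPM in Ctrl. Zbp1, which binds left-handed (Z-form) nucleic acid and can trigger cell death, had 21.7, 29.1 and 8.75 CPM in M3-CKO and 14.3, 26.6 and 12.2 CPM in Ctrl. The DNA sensor gene Cgas was counted low throughout, at 7.24, 11.1 and 3.56 CPM in M3-CKO and 4.37, 9.30 and 3.71 CPM in Ctrl. The log2 fold changes of Eif2ak2, Zbp1 and Cgas were -0.28, 0.16 and 0.33 (adjusted p = 0.62, 0.89 and 0.77 by edgeR), and the groups overlapped for each. Of the 7 sensor genes none was called, with log2 fold changes from -0.85 to 0.44 and a median of 0.01. Ifih1 was the 1 sensor gene with an unadjusted p under 0.05 by edgeR and the 1 that DESeq2 called.

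The adaptor genes were steadier than the sensors. Mavs, the mitochondrial adaptor of RIG-I and MDA5, had 67.7, 71.8 and 54.6 CPM in M3-CKO and 67.7, 66.2 and 68.4 CPM in Ctrl (log2 fold change -0.06, SE 0.16, adjusted p = 0.87). Its Ctrl libraries lay within 1.03-fold of each other, where the median was 3.04-fold over the 39 genes and 1.34-fold over all tested genes. Its M3-CKO libraries lay within 1.31-fold, where the medians were 2.93-fold and 1.59-fold, and replicate 3 was the lowest. Sting1, the adaptor of cGAS, had 104, 105 and 113 CPM in M3-CKO and 172, 112 and 120.0 CPM in Ctrl. Only Ctrl replicate 1 lay clearly above the rest (log2 fold change -0.33, SE 0.19, adjusted p = 0.38).

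The transcription factors of the pathway followed the pattern by library to different degrees. Irf7, the factor that amplifies interferon production, had 96.6, 136 and 19.7 CPM in M3-CKO and 57.1, 108 and 20.6 CPM in Ctrl. Replicate 3 was far below its own group in both, and the highest library of each group was 6.92-fold above the lowest in M3-CKO and 5.24-fold in Ctrl. Stat2 had 103, 118 and 63.6 CPM in M3-CKO and 58.3, 99.5 and 36.1 CPM in Ctrl (log2 fold change 0.55, SE 0.38, adjusted p = 0.46). Its partner Irf9 had 87.9, 100.1 and 60.0 CPM in M3-CKO and 87.9, 101 and 42.5 CPM in Ctrl. Here the ranges of the 2 groups overlapped almost wholly. Irf1, which interferon gamma induces, departed from the others: it had 101, 119 and 68.7 CPM in M3-CKO, and 74.4, 83.8 and 93.2 CPM in Ctrl, where replicate 3 was the highest. The log2 fold changes of Irf7, Irf9 and Irf1 were 0.45, 0.10 and 0.20. None of these 4 factors was called by edgeR (adjusted p from 0.46 to 0.90) or by DESeq2, and at an unadjusted p under 0.05 edgeR gave 0 of 4.

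**Figure D4:**
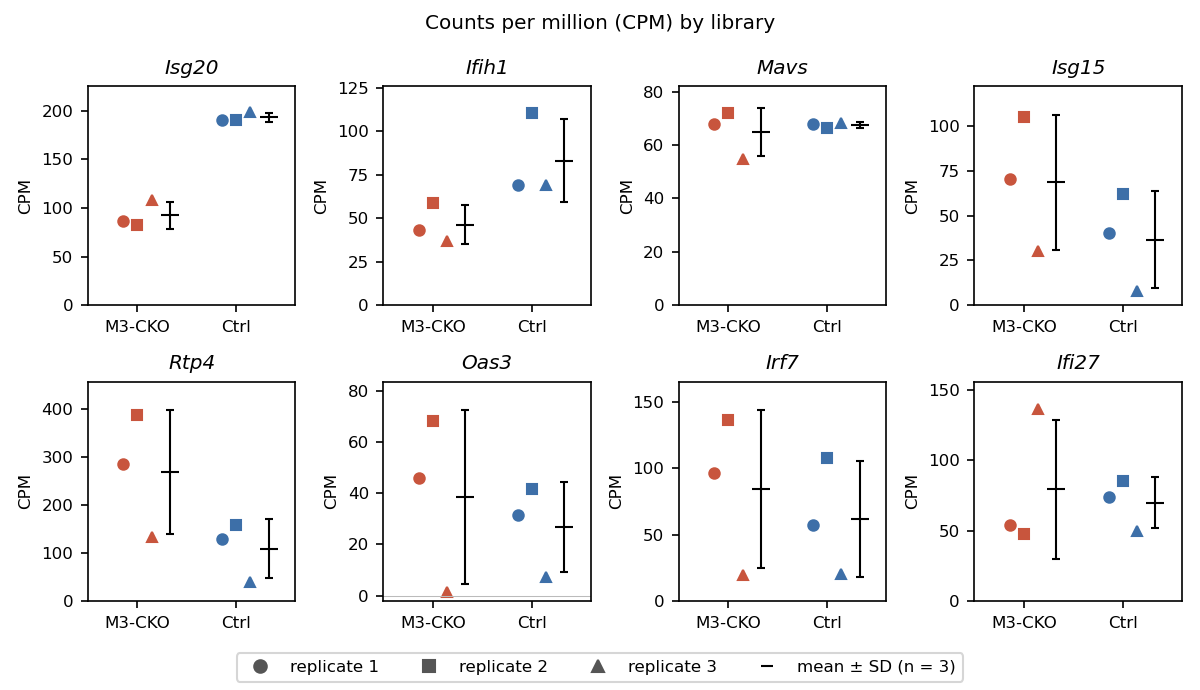
CPM of 8 genes in each library, M3-CKO (red) left of Ctrl (blue), with a circle, square and triangle for replicates 1 to 3 and the mean ± SD (n = 3) beside them. Isg20 separates the groups, Mavs is nearly flat, Isg15, Rtp4, Oas3 and Irf7 are lowest in replicate 3 of both groups, and Ifi27 is highest in M3-CKO replicate 3.

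The IFIT, OAS and MX genes, which encode the direct antiviral effectors, shared the pattern by library without exception: all 11 were lowest in replicate 3 of both groups. Summed, the 11 genes had 895, 1127 and 301 CPM in M3-CKO, against 626, 981 and 277 CPM in Ctrl. Replicate 2 was thus the highest and replicate 3 by far the lowest of each group. Ifit1, whose protein binds viral RNA caps, had 299, 373 and 123 CPM in M3-CKO and 197, 323 and 115 CPM in Ctrl (log2 fold change 0.32, SE 0.47, adjusted p = 0.75). Oasl2, an OAS-like protein, had 303, 368 and 102 CPM in M3-CKO and 204, 267 and 68.1 CPM in Ctrl (log2 fold change 0.52, SE 0.57, adjusted p = 0.67). In both genes M3-CKO replicates 1 and 2 and Ctrl replicate 2 were high and the libraries numbered 3 low. None of the 11 genes was called by edgeR or DESeq2, and 0 reached an unadjusted p under 0.05 by edgeR. Their log2 fold changes ran from -0.83 to 0.52 with a median of 0.30. Ifit2 had 0.46, Oasl1 0.30, Oas1g 0.18, Oas1a -0.03 and Mx1 -0.34, with adjusted p from 0.68 to 0.98.

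The widest spread within groups was found in Oas2 and Oas3, which encode synthetases of 2′-5′ oligoadenylate, the activator of RNase L, followed by Rsad2 and Ifit3. Their values by library are given because of that spread. Oas3 had 45.8, 68.0 and 1.42 CPM in M3-CKO, where replicate 3 rests on 14 counts, and 31.4, 41.7 and 7.30 CPM in Ctrl. Oas2 had 40.0, 56.1 and 2.85 CPM in M3-CKO and 42.7, 33.3 and 2.02 CPM in Ctrl. Between the highest and the lowest M3-CKO library Oas3 differed 47.8-fold and Oas2 19.7-fold, while their group means differed by less than their SDs. Ifit3 had 57.1, 107 and 11.1 CPM in M3-CKO and 26.1, 119 and 15.5 CPM in Ctrl. Rsad2, which encodes viperin, an enzyme that makes a chain-terminating nucleotide, had 15.8, 20.3 and 1.73 CPM in M3-CKO and 3.93, 32.7 and 1.46 CPM in Ctrl. Ctrl replicate 2 was the highest of all 6 libraries for both Ifit3 and Rsad2, so the sign of their difference depends on the libraries used. Reads of Ifit3 may be shared with its near-identical neighbour Ifit3b, which had 22.9, 44.8 and 4.27 CPM in M3-CKO and 15.3, 47.5 and 3.93 CPM in Ctrl. Mx2, the least counted of the 11 by its lowest library, had 2.99, 3.54 and 2.44 CPM in M3-CKO and 4.26, 11.1 and 0.562 CPM in Ctrl, the last from 5 counts.

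Isg15, a ubiquitin-like protein that is attached to other proteins, had 70.5, 105 and 30.1 CPM in M3-CKO and 40.2, 61.8 and 7.75 CPM in Ctrl. M3-CKO replicate 3 lay below 2 of the Ctrl libraries, so the groups overlapped (log2 fold change 0.90, SE 0.69, adjusted p = 0.52). Usp18, the protease that removes ISG15 and dampens interferon receptor signalling, had the same order of libraries within each group. It had 16.3, 17.0 and 14.2 CPM in M3-CKO, and 23.3, 30.2 and 7.53 CPM in Ctrl (log2 fold change -0.36, SE 0.45, adjusted p = 0.71). Herc6, the ligase that attaches ISG15 in mice, had 7.24, 7.76 and 3.76 CPM in M3-CKO and 4.80, 16.0 and 6.18 CPM in Ctrl.

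Rtp4, an interferon-induced regulator of the response that also helps receptors reach the cell surface, had the largest positive difference of the 39. It had 285, 387 and 132 CPM in M3-CKO, against 129, 157 and 40.3 CPM in Ctrl. The lowest M3-CKO library lay between the Ctrl values, and edgeR gave a log2 fold change of 1.30 with an SE of 0.54 and an adjusted p of 0.23. Leaving out M3-CKO replicate 3 gave 1.62 (adjusted p = 0.033). Parp14, an ADP-ribosyltransferase, had 164, 195 and 81.4 CPM in M3-CKO and 98.1, 259 and 134 CPM in Ctrl. Adar, the enzyme that edits adenosine to inosine in double-stranded RNA, had 110.2, 127 and 80.1 CPM in M3-CKO and 90.4, 138 and 91.9 CPM in Ctrl. Both differences were smaller than their errors (log2 fold change -0.16, SE 0.42, for Parp14 and -0.01, SE 0.24, for Adar). The chemokine gene Cxcl10 had 35, 11 and 11 counts in M3-CKO and 6, 21 and 3 counts in Ctrl, and its log2 fold change of 0.83 had an SE of 0.77. Among the other induced genes, Bst2 (tetherin, which holds budding virus at the cell surface), Ifi44, Xaf1 and Cmpk2 (a mitochondrial nucleotide kinase) were lowest in replicate 3 of both groups, with log2 fold changes from 0.07 to 0.46 and adjusted p from 0.71 to 0.96.

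Ifi27 and Ifi35 ran against the others within M3-CKO. Ifi27, a small mitochondrial or nuclear membrane protein, had 53.8, 47.7 and 136 CPM in M3-CKO and 74.1, 85.3 and 49.9 CPM in Ctrl. Ifi35, a partner of the STAT-binding protein NMI, had 19.5, 16.4 and 35.5 CPM in M3-CKO and 27.1, 31.4 and 17.4 CPM in Ctrl. For both, M3-CKO replicate 3 was the highest of all 6 libraries, whereas Ctrl replicate 3 was the lowest of Ctrl as for most other genes. With Sting1 and Isg20 they are the 4 genes for which M3-CKO replicate 3 was not the lowest of its group. Sting1 and Isg20 were also the 2 genes that were lowest in replicate 3 of neither group.

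The spread between replicates of a group was wide for most of the 39 genes. The SD of log2(CPM + 1) within groups had a median of 0.71 over the 39 genes, against 0.30 over all tested genes. It exceeded the 90th percentile of all tested genes, 0.63, for 26 of the 39 (66.7%), including all 11 IFIT, OAS and MX genes and all 3 genes of the ISG15 system. Among the 34 members with a mean of at least 10 CPM, 22 (64.7%) exceeded that value, against 7.25% of all tested genes with such a mean. Mavs (0.15), Isg20 (0.15), Sting1 (0.24) and Irf1 (0.31) had the smallest spread. The 13 genes with ISRE letters in their window had a median SD of 0.80 (range 0.36 to 2.07), and the 16 with a window but without those letters one of 0.67 (range 0.15 to 1.32). These ranges overlap widely. Oasl2 and Irf7, for instance, had no ISRE letters within their windows and SDs of 1.01 and 1.32.

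**Figure D5:**
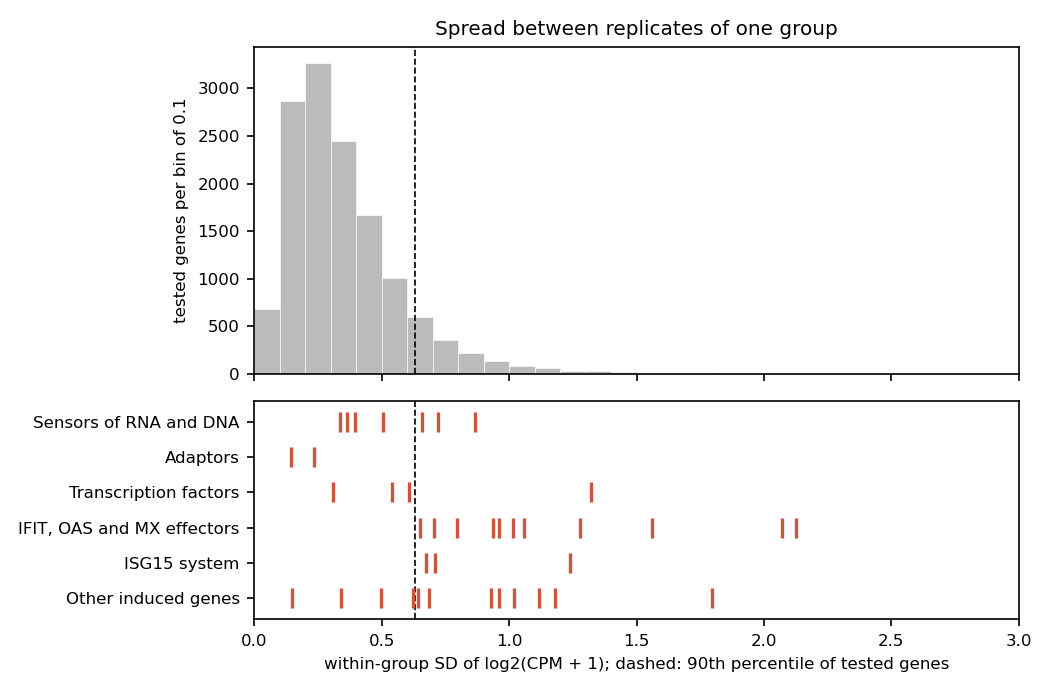
Upper panel: histogram of the SD of log2(CPM + 1) within groups over the 13528 tested genes. Lower panel: the same SD for each of the 39 genes (red ticks), 1 row per role; the dashed line marks the 90th percentile of tested genes, 0.63. All ticks of the IFIT, OAS and MX row lie to the right of the line and both adaptors to the left.

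Upstream of these genes, 3 of the 10 listed interferon genes had a row, and these 3 were at or near 0. Ifnb1, Ifng, Ifnl2, Ifnl3 and the listed type I alpha genes had no row. The table has 0 rows with no count in any library, so a gene without a row may have had no counts or may not have been annotated, and its level is unknown. Ifne had 0, 0 and 0 counts in M3-CKO and 2, 0 and 0 in Ctrl, Ifnk 0, 0 and 2 in M3-CKO and 0, 1 and 0 in Ctrl, and Ifnz 1, 2 and 0 in M3-CKO and 2, 0 and 0 in Ctrl. At 0 to 2 counts a library, no difference in these ligands was detectable at this depth. All 6 receptor genes were measured and 0 were called by edgeR or DESeq2, although Ifnar1 and Il10rb had an unadjusted p under 0.05 by edgeR. Ifnar1, a chain of the type I receptor, had 121, 119 and 88.6 CPM in M3-CKO and 83.1, 81.8 and 76.9 CPM in Ctrl, and the groups did not overlap (log2 fold change 0.44, SE 0.17, adjusted p = 0.18), as for 3 of the 6 receptor genes and 27.1% of all tested genes. Ifnlr1, the specific chain of the type III receptor, had 109, 99.0 and 42.9 CPM in M3-CKO and 47.4, 49.1 and 66.6 CPM in Ctrl, so that M3-CKO replicate 3 was below all Ctrl libraries and the other M3-CKO libraries above them. Without M3-CKO replicate 3 both were called higher (Ifnar1 0.57, adjusted p = 0.0077, and Ifnlr1 0.93, adjusted p = 0.0061), where 13.7% of all genes were. Il10rb, the shared chain of the type III receptor, had 52.3, 52.9 and 59.6 CPM in M3-CKO and 81.3, 62.9 and 71.1 CPM in Ctrl, also without overlap, at -0.39 on the log2 scale (SE 0.16, adjusted p = 0.23 by edgeR). Ifnar2, Ifngr1 and Ifngr2 had 0.12, 0.31 and -0.16, and Ifngr1 was the third receptor gene whose groups did not overlap, higher in M3-CKO.

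The receptor kinase genes Jak1 and Jak2 had log2 fold changes of -0.28 and 0.24 (adjusted p = 0.30 and 0.45 by edgeR). Of 16 tested genes of other sensors and of the steps between sensors and interferon, 0 were called by edgeR or DESeq2. At an unadjusted p under 0.05 edgeR gave 1, Aim2, a DNA sensor that forms an inflammasome (log2 fold change -0.84, SE 0.29, adjusted p = 0.16, groups not overlapping). Of the same list, the adaptor gene Myd88 had -0.43 and the ubiquitin ligase gene Traf6 0.47 (adjusted p = 0.32 and 0.37). Among 9 tested negative regulators 0 were called by either tool and 0 reached an unadjusted p under 0.05 by edgeR. The 3 with the lowest p were Socs1, Cnot6 and Rnaseh2c, with log2 fold changes of -0.66, -0.20 and 0.23.

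A further 56 tested interferon-induced genes, listed in addition to the 39, were examined in the same way. None was called by edgeR, and the median log2 fold change of the 56 was -0.08. An unadjusted p under 0.05 was reached by 7, each lower in M3-CKO, a smaller share than the 20.5% of all tested genes. DESeq2 called 2 lower, where it called 4.31% of all tested genes lower. These were Apobec3, a cytidine deaminase that restricts retroviruses (log2 fold change -0.60, SE 0.15, adjusted p = 0.071 by edgeR and 0.0045 by DESeq2), and Oas1c, another OAS family member (-0.78, SE 0.23, adjusted p = 0.11 by edgeR and 0.031 by DESeq2). Nmi, the partner of IFI35, averaged 3.64 ± 1.19 CPM in M3-CKO and 7.31 ± 1.69 CPM in Ctrl (SD, n = 3 each; adjusted p = 0.17 by edgeR). By library, 32 of the 56 (57.1%) were lowest in replicate 3 of both groups, against 10.2% of all tested genes. Without M3-CKO replicate 3, edgeR called 13 of all 91 tested pathway genes outside the 39, 7 higher and 6 lower, beside the 25% of all genes given above. Summed over the 61 with a row, the further induced genes had 5868, 6561 and 4279 CPM in M3-CKO and 5723, 6008 and 4243 CPM in Ctrl.

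Markers of other cells were summed by library. Of 14 immune markers 9 had a row, and they summed to 1636, 1455 and 1196 CPM in M3-CKO and to 1035, 1335 and 1857 CPM in Ctrl. Replicate 3 was thus the lowest of M3-CKO and the highest of Ctrl. Whether immune cells had a part in the pattern by library of the interferon-stimulated genes was not tested. Nearly all of these sums came from Lyz2, Cd14 and Cd68, of which Lyz2 and Cd14 are also known from airway epithelium. The other 6 summed to 6.95, 6.85 and 1.42 CPM in M3-CKO and to 5.02, 10.3 and 10.2 CPM in Ctrl. Ptprc, the pan-leukocyte gene, had 0 counts in all M3-CKO libraries and in 2 of 3 Ctrl libraries. Mesenchymal markers (4 of 8 with a row) reached 2.05 to 3.05 CPM in M3-CKO and 4.59 to 12.9 CPM in Ctrl, and endothelial ones (3 of 6) 0.966 to 1.14 CPM in M3-CKO and 0.225 to 0.437 CPM in Ctrl.

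The 12 airway epithelial markers summed to 5655, 5723 and 3683 CPM in M3-CKO and to 5615, 4408 and 4684 CPM in Ctrl, lowest in M3-CKO replicate 3 but not in Ctrl replicate 3. Between the groups, 4 of the 12 were called by edgeR, beside 2.91% of all tested genes, and they are named because Isg20 was called as well. The basal keratin genes Krt5, Krt14 and Krt15 were lower in M3-CKO (log2 fold change -1.82, -2.13 and -2.23), and the secretory cell gene Scgb1a1 was higher. Scgb1a1 had 83.2, 37.5 and 359 CPM in M3-CKO and 5.57, 4.33 and 2.81 CPM in Ctrl, a log2 fold change of 5.23 that was 3.83 without M3-CKO replicate 3. The basal transcription factor gene Trp63 had -0.81 (SE 0.28, adjusted p = 0.16 by edgeR). The part of epithelial composition in the Isg20 difference and in the pattern by library was not tested.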

How the data were processed

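The deposited table holds whole-number counts per gene symbol, not normalized. The notes of the submitters on processing name featureCounts, HISAT2, Trim Galore and build mm39. Versions, annotation, strand setting and the handling of multi-mapping reads were not given in these sources, so counts of paralogs and overlapping genes are uncertain. The authors' counts were tested with edgeR 4.0.16 in R 4.3.3: filterByExpr, TMM scaling, and the quasi-likelihood test of M3-CKO against Ctrl, two-sided, without covariates. Calls needed a p under 0.05 after Benjamini-Hochberg adjustment over all tested genes. The SE is the log2 fold change over the square root of F. CPM use TMM-scaled library sizes, and 1 was added before taking log2. Alternatives were DESeq2 1.42.0 (size factors, Wald test), limma-voom (limma 3.58.1), library size alone, no filter, a filter of 1 CPM in 3 libraries, a block for the replicate number, and each library left out in turn. The fitting code was tested on simulated data with known changes. The members and lists were chosen with earlier results of these data known. The rule for named genes takes all members, gives values by library for called genes, the 10 with the lowest p, the 8 with the highest CPM, sensors, adaptors and transcription factors, and up to 3 genes of each pathway list; values by library outside it were chosen after they were seen. Promoter letters come from RefSeq windows on GRCm38.p6, read by gene symbol, and no coordinate was converted.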

Additional observations from a re-analysis of the deposited data

How the results depend on the processing

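Over all genes edgeR called 393, against 740 with no low-count filter, 1402 by DESeq2, and 0 to 3483 with single libraries left out, the most without M3-CKO replicate 3. Of the 39 genes 1 was called, against 2 by DESeq2 and 0 to 3 with single libraries left out. Of the 91 pathway genes 0 were called, against 2 by DESeq2 and 0 to 13. The Mettl3 log2 fold change was called by DESeq2 (-0.70, adjusted p = 0.049) and ran from -0.78 to -0.62 with single libraries left out. Over all tested genes, deviations of samples with the same replicate number correlated at -0.024, 0.021 and -0.11. Those of samples with different numbers, from the 2 groups, correlated at -0.082 to 0.12. Of the 39 genes, which are not independent of each other, 30 were lowest in replicate 3 of both groups. The labels name no pairs, so the main fit had no block. With the replicate block, 20 genes (0.148%) were called in all and 0 of the 39, Isg20 having an adjusted p of 0.079 in edgeR. Signs turned in limma-voom and with the replicate block for Oas1a (0.11 and 0.11), Oas3 (-0.40 and -0.11), Rsad2 (0.46 and 0.50) and Ifi44 (-0.038 and -0.031). With single libraries left out, the log2 fold change of 24 of the 39 genes changed sign, and none of those 24 was called. The ranges were -0.28 to 0.31 for Rigi, -0.47 to 0.46 for Dhx58, -0.088 to 0.84 for Cgas, -0.20 to 0.57 for Zbp1, -0.13 to 0.044 for Mavs, -0.071 to 1.11 for Irf7 and -0.20 to 0.34 for Irf9. They were -0.64 to 1.48 for Ifit3, -0.42 to 0.27 for Oas1a, -0.29 to 0.83 for Oas1g, -0.26 to 0.90 for Oas2, -0.16 to 1.08 for Oas3, -0.074 to 1.41 for Oasl1 and -1.36 to 0.30 for Mx2. They were -0.76 to 0.037 for Usp18, -0.82 to 0.18 for Herc6, -0.54 to 2.21 for Rsad2, -0.15 to 1.17 for Cmpk2, -0.34 to 0.46 for Ifi44, -0.50 to 0.13 for Ifi35, -0.46 to 0.45 for Ifi27, -0.15 to 0.21 for Adar, -0.42 to 0.34 for Parp14 and -0.23 to 0.89 for Xaf1. The causes were not tested. Other scalings and filters turned no sign among the 39 genes. Depth limits the lowest values, such as Cxcl10 in most libraries and Mx2 and Oas3 in their lowest.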
